A study of Homo sapiens with 6 samples.

Results

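ZNF genes outside chromosome 19, named for zinc fingers, are read here in T24 bladder cancer cells with and without knockdown of TRIM28. Members are all genes of the count table whose name is ZNF followed only by a number and which lie on a primary chromosome other than 19. There are 237 of them on 20 chromosomes, among 479 such genes in the table (the other 242 are on chromosome 19) and 78932 genes in all. T24 is a line from a human urothelial carcinoma. It is transfected with a control siRNA (siNC) in 3 replicates and with siRNA against TRIM28 (siTRIM28) in the other 3. Growth medium and transfection reagent are the same throughout. The sample titles number the replicates and do not say whether they are separate cultures. The time between transfection and harvest, and which of the TRIM28 siRNAs was used, are not given in the sources used here. All 6 libraries hold poly(A) RNA in 1 batch. One cell line is a single model of bladder cancer, and the data are bulk RNA, so less RNA per cell and fewer cells with that RNA cannot be told apart.

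Most C2H2 zinc finger proteins bind DNA through tandem fingers, each reading a few bases. A large share of them carry an N-terminal KRAB domain, which binds TRIM28 (also called KAP1). TRIM28 in turn brings SETDB1, which methylates histone H3 on lysine 9, together with HP1 proteins and the NuRD deacetylase complex, and so silences the bound site, often a transposable element. KRAB zinc finger genes lie in clusters of related copies, and many of these clusters are themselves coated with this mark. Other ZNF genes carry a SCAN domain, which pairs such proteins with each other, or neither domain, and work as activators, corepressor adaptors, RNA-binding proteins or ribosome factors.

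The knockdown is visible in every library. TRIM28 is at 102, 101 and 108 TMM-normalized CPM (read counts relative to library size) in siNC and at 9.28, 8.11 and 9.21 CPM in siTRIM28. Its log2 fold change is -3.54 ± 0.0723 (SE, n = 3 per group, adjusted p = 1.03e-10, edgeR quasi-likelihood test with Benjamini-Hochberg adjustment). The libraries hold 11712623 to 14018052 counts. Within siNC, replicates 1 and 2 lie closer to each other than to replicate 3, with a chi-square per degree of freedom over genes of 1.08 against 4.17 and 4.22. Within siTRIM28, replicates 2 and 3 are the close pair, at 1.22 against 6.25 and 5.65. The SE and p-values given here count all 3 libraries of a group as independent, and are too small if a close pair is not. With each close pair summed, 62 members are called, where the main fit calls 77. Of 16 urothelial and epithelial markers 6 pass the filter on low counts, namely KRT7, KRT8, KRT18, PPARG, TP63 and UPK1A, while UPK1B and KRT20 are at 0. Of 8 markers of other cells 4 pass. VIM is at 1102 CPM in siNC and 1389 CPM in siTRIM28, CD68 at 348 and 351, CDH2 at 57.9 and 62.1 and COL1A1 at 0.932 and 3.28, while CD3E is at 0. At an edgeR adjusted p under 0.05, KRT7, KRT8, VIM and, at low counts, TP63, UPK1A and COL1A1 are higher in siTRIM28. KRT18, PPARG, CD68 and CDH2 are not called. Several urothelial defining markers are thus absent or under the filter in this line.

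Sequence features shared by members are shown first, because 2 of the descriptions below refer to them. Their part in the values was not tested. The promoter of ZNF273, a KRAB gene of the proximal long arm of chromosome 7, is printed from the RefSeq promoter table (GRCh38.p14, chr7:64903023-64903322, plus strand, 250 bases before the start and 50 after it). The capitals mark the longest run of letters, 18 bases, that the promoters of at least 5 genes of its chromosomal block share.
ZNF273: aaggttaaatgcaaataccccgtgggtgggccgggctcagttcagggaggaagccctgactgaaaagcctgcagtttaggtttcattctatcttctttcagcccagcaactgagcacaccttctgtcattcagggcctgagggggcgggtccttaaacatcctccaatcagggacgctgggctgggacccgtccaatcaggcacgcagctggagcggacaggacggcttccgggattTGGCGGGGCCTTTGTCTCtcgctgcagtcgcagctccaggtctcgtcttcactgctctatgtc

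The same run lies near the start site of 5 other members. Windows of 60 bases around it (56 for ZNF736, where the table's promoter ends) show how far the letters beside the run are shared. They are at chr7:64563046-64563105 (minus strand) for ZNF680, chr7:64666105-64666164 for ZNF107, chr7:65373821-65373880 for ZNF92, chr7:64313955-64314010 for ZNF736 and chr1:247008028-247008087 (minus strand) for ZNF695.
ZNF680: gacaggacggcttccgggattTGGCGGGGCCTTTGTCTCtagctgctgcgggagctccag
ZNF107: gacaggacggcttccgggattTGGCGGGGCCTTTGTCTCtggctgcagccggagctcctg
ZNF92: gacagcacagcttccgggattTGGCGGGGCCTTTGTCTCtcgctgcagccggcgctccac
ZNF736: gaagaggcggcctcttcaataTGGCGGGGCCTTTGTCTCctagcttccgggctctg
ZNF695: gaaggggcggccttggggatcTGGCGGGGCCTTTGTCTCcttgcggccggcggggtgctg

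The other feature concerns the seed of an siRNA. The seed is bases 2 to 8 of the guide strand, counted from its 5′ end, and transcripts that pair with this stretch only may be lowered too. The siRNA siTRIM28-2 of the study matches the 3′ UTR of TRIM28, and the site its seed pairs with is shown in capitals with 8 bases on either side, as read from GENCODE v29 transcripts (GRCh38, chr19:58550589-58550611 for TRIM28). The same 7 letters stand in the longest annotated 3′ UTR of 6 of the 10 members with the largest falls among those called that average 50 counts or more and do not overlap between groups. Over all members with such a UTR, 45 of 233 hold them. ZNF395 is among the 6 and its site is not printed. The other 5 sites are printed. They are at chr14:21090120-21090142 (minus strand) in ZNF219, chr1:151291311-151291333 in ZNF687, chr7:149283874-149283896 in ZNF783, chr4:145761078-145761100 (minus strand) in ZNF827 and chr1:247300393-247300415 (minus strand) in ZNF496.
TRIM28: gttctctgTCCTGTCaccccatc
ZNF219: ggtacgatTCCTGTCatccctat
ZNF687: ttgttaatTCCTGTCtctccaac
ZNF783: ccttttttTCCTGTCagaatccc
ZNF827: ccggaatcTCCTGTCtcccctgt
ZNF496: cacctcccTCCTGTCcttgctct

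Of the 237 members, 203 reach 10 counts in 3 or more of the 6 libraries and are tested. The 34 others include 4 with no count in any library, and none of them exceeds 13 counts in a library. At an adjusted p under 0.05, 32 members are higher and 45 are lower in siTRIM28, and 126 are not called. Members are called higher in 15.8% of tests against 21.3% of all 18474 genes tested, and lower in 22.2% against 20.5%. Both directions together come to 37.9% of members against 41.8% of all genes, so the share of members called is near the background and below it. The median log2 fold change of the tested members is -0.08, beside 0.02 for all genes. ZNF genes of chromosome 19 lie close by, with 25 higher and 39 lower of 197 tested and a median of -0.09.

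Large changes are few. Only 4 members pass an absolute log2 fold change of 1 upward together with the threshold, namely ZNF703, ZNF141, ZNF860 and ZNF367, and 6 do so downward, namely ZNF219, ZNF2, ZNF687, ZNF268, ZNF70 and ZNF395. Over all genes tested, 5.87% pass both limits. In 104 of the 203 tested members the siNC and siTRIM28 libraries do not overlap, where 52.0% of all genes do not. ZNF860, ZNF2 and ZNF70 are named here after their values were seen.

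**Figure D1:**
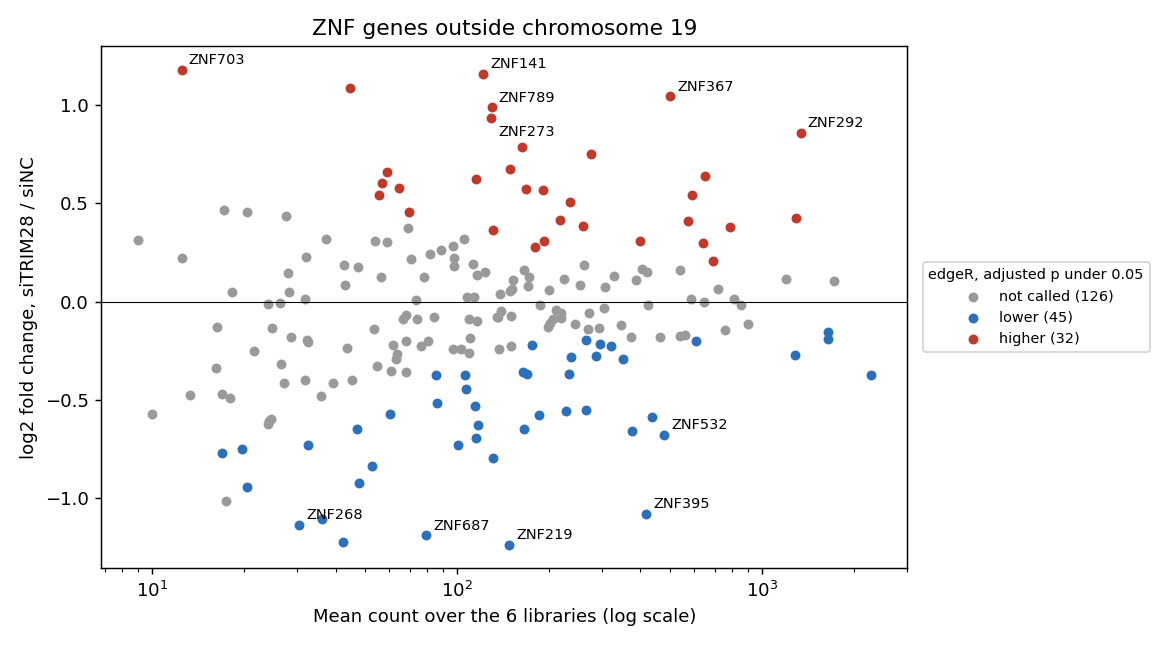
Each point is 1 of the 203 tested members, with its mean count over the 6 libraries on a log axis and its log2 fold change of siTRIM28 against siNC on the vertical axis. Red points (32) are higher and blue points (45) lower at an adjusted p under 0.05, and most points lie within 1 of 0.

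Members are modestly expressed. Their median count is 117 per library, against 136 over all genes tested. With fewer than 50 counts on average, 22.4% of 49 members are called, against 22.7% of all genes at that level. From 50 to 200 counts it is 39.1% of 87 members against 40.6%, and from 200 to 1000 counts it is 44.1% of 59 members against 55.3%. Of the 8 members above 1000 counts 6 are called, which is 75% against 59.7%. By direction, under 50 counts 9 members are lower (18.4%) and 2 are higher (4.08%), while 7.16% of all genes at that level are lower and 15.5% higher. This difference in balance was not tested.

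Per length of transcript, the median level in siNC is 1.61 RPKM (CPM divided by the table's gene length in kilobases), with a range of 0.110 to 52.8 RPKM, against a median of 2.72 RPKM over all genes tested. The 2 highest members in RPKM are ZNF330, a nucleolar protein, at 52.8 ± 1.45 RPKM (SD, n = 3), and ZNF622, which helps to mature the large ribosomal subunit, at 31.9 ± 2.00 RPKM. ZNF664 is next at 30.9 ± 0.447 RPKM and does not differ from ZNF622 beyond their spread. ZNF768 is at 21 ± 1.03 RPKM and ZNF512 at 19.3 ± 0.551 RPKM. The highest KRAB gene is ZNF777, at 12.6 ± 0.235 RPKM in siNC and 8.38 ± 0.614 RPKM in siTRIM28. The lowest tested member is ZNF287, with both a KRAB and a SCAN domain, at 0.110 RPKM. Across the 203 members the siNC level in RPKM and the log2 fold change have a Spearman correlation of 0.07, given as a description, since all points share the same 6 libraries.

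KRAB members do not stand apart from the rest in these counts. A KRAB A box is found by 14 conserved positions in the translated coding sequence of 110 members, of which 97 are tested. Throughout, members count as with or without a KRAB or SCAN domain by such patterns only. A domain that departs from its pattern is missed. Of these 17 are higher and 21 lower, with a median log2 fold change of -0.06 and a median siNC level of 0.988 RPKM. Of the 126 coding members without it 105 are tested, 15 are higher and 24 lower, the median log2 fold change is -0.09 and the median level 2.31 RPKM. Both groups are called at a rate near the 41.8% of all genes, at 39.2% and 37.1%. On chromosome 19, 169 KRAB genes are tested, with 22 higher and 34 lower and a median of -0.12. The remaining member, ZNF883, has no annotated coding sequence, and its log2 fold change of -0.36 is not called.

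A SCAN domain is found in 19 members, of which 17 are tested. Of these 5 are lower, namely ZNF496, ZNF202, ZNF397, ZNF445 and ZNF197, and 1 is higher, ZNF24, a SCAN protein tied to cell proliferation, at a log2 fold change of 0.31. In all 35.3% of the 17 are called and 29.4% are lower, against 41.8% and 20.5% of all genes, and their median is -0.12. In the 7 members in which both domains are found, 3 are lower and none is higher by edgeR. ZNF197, named after its values were seen, falls from 23.9 ± 0.772 to 19.7 ± 0.946 CPM (SD, n = 3). The number of C2H2 fingers, with a median of 10.5 in KRAB members and 7 in the others and up to 33, has a Spearman correlation with the log2 fold change of -0.04 over 202 members, given as a description.

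The 10 largest rises among members that average 50 counts or more and whose groups do not overlap include 5 KRAB genes. ZNF141, a KRAB gene near the tip of the short arm of chromosome 4 (GRCh38, chr4:337814-383971), is at 6.70, 5.42 and 5.41 CPM in siNC and at 13.1, 13.4 and 12.7 CPM in siTRIM28. Every siTRIM28 library lies well above every siNC library. The log2 fold change is 1.16 ± 0.110 (SE, adjusted p = 7.09e-06, edgeR quasi-likelihood test, Benjamini-Hochberg). ZNF367, which has no KRAB domain and only 2 fingers by the pattern used, is at 27.3, 23.5 and 25.4 CPM in siNC and at 52.1, 55.5 and 49.7 CPM in siTRIM28, a log2 fold change of 1.04 ± 0.0726. Its groups are also wide apart.

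ZNF292 is a large protein with 14 fingers, known as a gene mutated in chronic lymphocytic leukaemia and in neurodevelopmental disorders. It is at 73.9, 72.8 and 75.6 CPM in siNC and at 128, 138 and 137 CPM in siTRIM28. This is the rise with the smallest standard error of the 10, with a log2 fold change of 0.86 ± 0.0485 (edgeR adjusted p = 1.24e-07). ZNF789, a KRAB gene on chromosome 7, is at 7.56, 5.85 and 6.90 CPM in siNC and at 13.6, 13.9 and 12.8 CPM in siTRIM28. It overlaps ZNF394 on the opposite strand, and the strand setting of the counting is not given in the sources used here, so reads of the pair may not be told apart. ZNF394 itself is not called, at a log2 fold change of -0.04.

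ZNF365 and ZNF697 complete the list besides 4 genes of the chromosome 7 block given further on. ZNF365, a centrosomal protein that binds DISC1 and in which no C2H2 finger is found by the pattern, is at 3.31, 4.19 and 3.06 CPM in siNC and at 5.71, 5.15 and 5.83 CPM in siTRIM28. ZNF697, with 11 fingers, is at 38.2, 40.3 and 39.3 CPM in siNC and at 70.1, 53.7 and 59.1 CPM in siTRIM28. Neither gene's groups overlap, and siTRIM28 replicate 1 is the highest library of ZNF697. Their log2 fold changes are 0.66 ± 0.162 and 0.64 ± 0.0879.

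The 10 largest falls under the same limits are led by genes without a KRAB domain. ZNF219, a partner of SOX9 in cartilage formation (chr14:21090077-21104722), is at 13.6, 17 and 16.5 CPM in siNC and at 5.78, 7.35 and 7.01 CPM in siTRIM28. ZNF687 is at 8.06, 8.96 and 7.92 CPM in siNC and at 3.07, 4.22 and 3.72 CPM in siTRIM28. ZNF395, a DNA-binding protein induced by hypoxia, is at 41.8, 43.7 and 43.6 CPM in siNC and at 21.1, 19.6 and 20.4 CPM in siTRIM28. In all 3 genes the highest siTRIM28 library is below the lowest siNC library. The log2 fold changes are -1.23 ± 0.121, -1.19 ± 0.148 and -1.08 ± 0.0627, with edgeR adjusted p-values of 9.21e-06, 6.02e-05 and 1.47e-07.

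ZNF687 and ZNF532, with ZNF592, form an adaptor module that works with the histone reader ZMYND8, and its 3 genes do not move alike. ZNF532 is at 42.6, 46.8 and 44.7 CPM in siNC and at 27.5, 28.6 and 27.8 CPM in siTRIM28, a log2 fold change of -0.68 ± 0.0625 (edgeR adjusted p = 5.57e-06). ZNF592 is at 15.1 ± 1.96 CPM in siNC and 15.8 ± 0.858 CPM in siTRIM28 (SD, n = 3). Its groups overlap, and its log2 fold change of 0.06 ± 0.0963 is not called. ZNF687 overlaps PI4KB on the opposite strand.

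Further large falls are in genes of known complexes or domains. ZNF827, which brings the NuRD complex to telomeres, is at 11.2, 11.4 and 9.96 CPM in siNC and at 5.78, 7.09 and 7.35 CPM in siTRIM28. ZNF496, a SCAN protein that binds the histone methyltransferase NSD1, is at 32, 35.6 and 37.3 CPM in siNC and at 21.7, 21.5 and 23.2 CPM in siTRIM28. ZNF783, a KRAB gene with 4 fingers, is at 12.2, 12.8 and 12.9 CPM in siNC and at 6.78, 8.02 and 7.09 CPM in siTRIM28. None of these groups overlap, and the log2 fold changes are -0.69 ± 0.120, -0.66 ± 0.0746 and -0.80 ± 0.0987. The KRAB genes ZNF619, ZNF189 and ZNF25 fall by 0.84, 0.73 and 0.65 on the log2 scale, each with no overlap between groups.

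**Figure D2:**
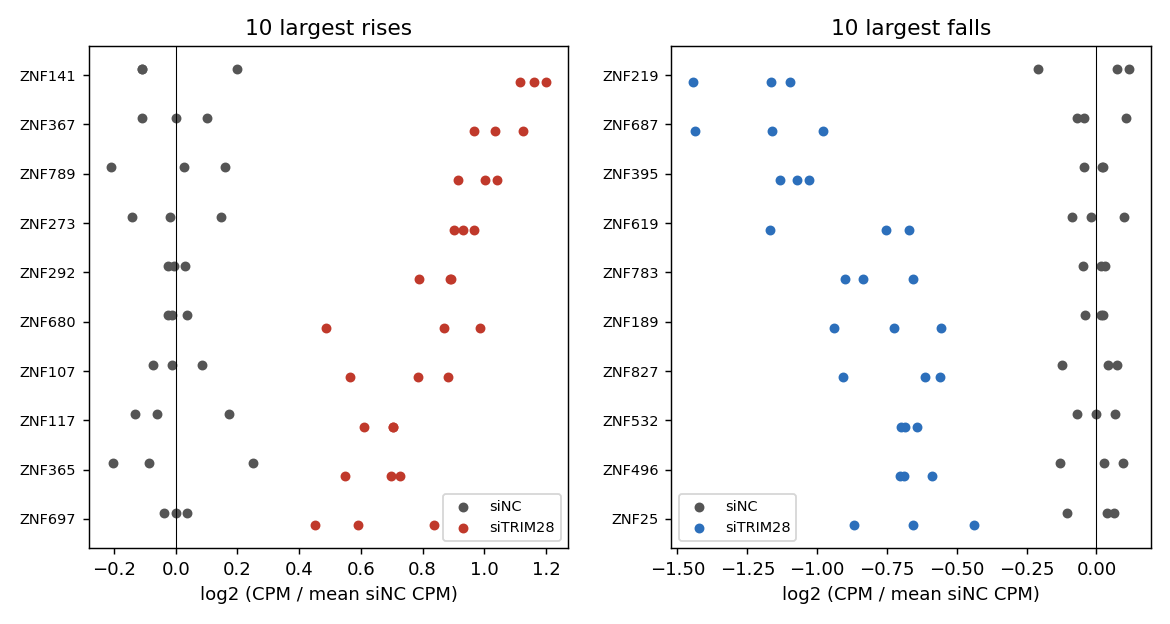
Each row is 1 gene and each point 1 library, as the log2 ratio of its CPM to the mean CPM of the 3 siNC libraries. Grey points are siNC and coloured points siTRIM28, for the 10 largest rises on the left and the 10 largest falls on the right, and no gene's groups overlap.

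Members with a well-described function are read next, whatever their values. Of 27 such genes 23 are tested, and 4 are higher, 8 lower and 11 not called, beside 21.3% higher and 20.5% lower over all genes. Of those lower, 4 are KRAB proteins, of which ZNF268 is given further on. ZNF445, which keeps methylation at imprinted loci, is at 28.7, 29.4 and 30.8 CPM in siNC and at 23.1, 23.6 and 26.1 CPM in siTRIM28, a log2 fold change of -0.29 ± 0.0697 (edgeR adjusted p = 0.00568). ZNF202, a repressor of lipid metabolism genes, is at 20.4, 20.5 and 21 CPM in siNC and at 13.8, 15.5 and 12.8 CPM in siTRIM28, a log2 fold change of -0.56 ± 0.0793 (edgeR adjusted p = 1.65e-04). ZNF140 is at 5.33, 4.84 and 4.0 CPM in siNC and at 2.64, 2.36 and 2.45 CPM in siTRIM28. In none of these genes do the groups overlap, and ZNF140 shares bases with ZNF891 on the opposite strand. ZNF10, the source of the KRAB domain used in CRISPR interference, is at 1.86 ± 0.192 CPM in siNC and 1.86 ± 0.444 CPM in siTRIM28 and is not called.

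Transcription factors among these genes split in direction. ZNF143, an activator that also marks chromatin loop anchors, is at 39.1, 38.8 and 36.2 CPM in siNC and at 53.6, 47.8 and 49.8 CPM in siTRIM28. ZNF217, an oncogene amplified in several carcinomas, is at 42.0, 43.9 and 47.4 CPM in siNC and at 51.5, 55.5 and 56.6 CPM in siTRIM28. Their groups do not overlap, and the log2 fold changes are 0.41 ± 0.0656 and 0.30 ± 0.0663. The call for ZNF217 is lost when the closest pair of libraries in each group is summed (edgeR adjusted p = 0.0511). ZNF703, amplified in luminal breast cancer, has a log2 fold change of 1.18 ± 0.315 but rests on 5 to 18 counts per library, and its call is lost by DESeq2 (adjusted p = 0.0565) and without siNC replicate 1 (edgeR adjusted p = 0.0503).

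ZNF148, ZNF281, ZNF263, ZNF335 and ZNF384, DNA-binding regulators with broad target sets, have log2 fold changes from -0.17 to 0.16 and are not called. Among genes with work outside DNA binding, ZNF326, which links chromatin to splicing, is at 134 ± 7.26 CPM in siNC and 120 ± 3.14 CPM in siTRIM28 (SD, n = 3). Its log2 fold change of -0.16 ± 0.0501 (edgeR adjusted p = 0.0251) is small, and the call is lost under upper-quartile scaling, by DESeq2, with the closest pairs summed, without siNC replicate 2, without siNC replicate 3 or without siTRIM28 replicate 3, where adjusted p-values run from 0.0553 to 0.120. ZNF598, the ubiquitin ligase of collided ribosomes, ZNF622 and ZNF593, both in the making of the large ribosomal subunit, and ZNF207, a spindle protein, range from -0.18 to 0.11 and are not called. Calls appear when single libraries are left out: for ZNF148 without siNC replicate 3, for ZNF598 without siNC replicate 1, and for ZNF207 and ZNF622 without siTRIM28 replicate 1. ZNF423, ZNF521, ZNF750 and ZNF165, known from neural, epidermal and testis tissue, have too few counts to be tested.

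Members lie along the chromosomes in blocks, taken here as runs of neighbouring members whose starts are less than 1 Mb apart. Of 128 such runs, single genes included, 13 have at least 4 tested members and hold 78 of the tested members. One block stands at the upper end of the medians and is described in full for that reason, after its values were seen. It spans chr7:63998849-65401135 in GRCh38 and holds 11 members, 10 of them with a KRAB domain. Of the 8 tested, 6 are higher and none is lower by edgeR, beside 21.3% higher and 20.5% lower over all genes. All 8 have a positive log2 fold change, and their median is 0.62. The count of 6 is the same under every scaling, filter and test tried, at an adjusted p under 0.01 and without each library in turn, except that it is 7 without siTRIM28 replicate 2.

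ZNF273 (chr7:64870172-64930981), a KRAB gene with 10 fingers, is at 6.26, 7.66 and 6.82 CPM in siNC and at 12.9, 13.2 and 13.5 CPM in siTRIM28. ZNF680, KRAB with 12 fingers, is at 9.58, 9.25 and 9.17 CPM in siNC and at 13.1, 17.1 and 18.5 CPM in siTRIM28. ZNF107, KRAB with 16 fingers, is at 15.8, 15.2 and 16.9 CPM in siNC and at 23.6, 27.5 and 29.5 CPM in siTRIM28. In each of them all siTRIM28 libraries lie above all siNC libraries, and siTRIM28 replicate 1 is the lowest of the siTRIM28 libraries. The log2 fold changes are 0.93 ± 0.101, 0.79 ± 0.122 and 0.75 ± 0.0891, with edgeR adjusted p-values of 2.04e-05, 3.10e-04 and 4.17e-05.

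The other genes of the block rise less or are not called. ZNF138 is at 10.9, 9.82 and 10.8 CPM in siNC and at 14.5, 16.3 and 16.1 CPM in siTRIM28, and ZNF92 at 15.6, 13.3 and 14.3 CPM in siNC and at 17, 21 and 19.7 CPM in siTRIM28. ZNF117, in which no KRAB domain is found, is at 8.14, 10.0 and 8.55 CPM in siNC and at 14.5, 13.6 and 14.5 CPM in siTRIM28. It shares its locus and strand with the retroviral gene ERV3-1. These groups do not overlap, and the log2 fold changes are 0.57, 0.41 and 0.67. ZNF736 (4.64 ± 0.935 and 5.97 ± 1.31 CPM) and ZNF727 (2.04 ± 0.610 and 2.30 ± 0.630 CPM) overlap between groups, with log2 fold changes of 0.37 and 0.14. ZNF722, ZNF735 and ZNF679 are under the filter.

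Among genes within the same span that are no members, 9 are tested. Of these 3 (33.3%, against 21.3% of all genes) are higher, ERV3-1 among them, and none is lower by edgeR, with a median log2 fold change of 0.12. The difference from the members was not tested. Whether position or another shared property of these genes goes with the rise was not tested.

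**Figure D3:**
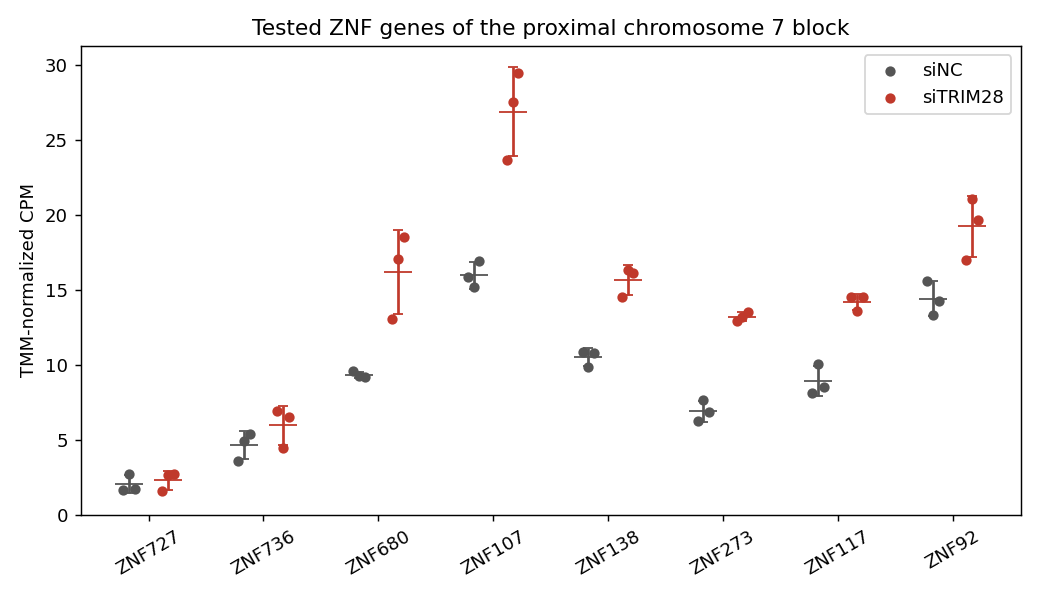
TMM-normalized CPM of the 8 tested genes of the chromosome 7 block, in order of position, with 1 point per library, the mean as a horizontal line and the SD as an error bar (grey siNC, red siTRIM28). In 6 genes every siTRIM28 library is above every siNC library, and in ZNF727 and ZNF736 the groups overlap.

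Promoters were compared in pairs only among the genes of this block, so no other pairs stand beside these values. The longest run of letters shared by any pair of the block is 78 bases, between ZNF680 and ZNF273. ZNF107 shares 68 bases with each of them. The 18-base run is in the promoter windows of 16 genes among 27305 gene symbols of the RefSeq table (0.0586%), on either strand. Of these, 15 are in the count table and are tested, and 8 are higher and none is lower by edgeR. Over all genes 21.3% are higher and 20.5% lower. The log2 fold changes of all 15 are positive with a median of 0.45. The 6 members among them are ZNF273, ZNF680, ZNF107, ZNF92 and ZNF695, all higher, and ZNF736, which is not called. The others are 9 ZNF genes of chromosome 19 with 3 higher and a median of 0.26, ZNF726 at 1.49, ZNF254 at 0.67 and ZNF43 at 0.45 being those called. The run was picked from the block after its values were seen, so these counts are a description and carry no test.

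ZNF695 shows the run outside chromosome 7. This KRAB gene near the end of the long arm of chromosome 1 is at 3.49 ± 0.662 CPM in siNC and 5.30 ± 0.335 CPM in siTRIM28 (SD, n = 3), without overlap and with a log2 fold change of 0.60 ± 0.171. Its 3 KRAB neighbours ZNF670, ZNF669 and ZNF124, without the run, have log2 fold changes from -0.21 to 0.47 and are not called. Of 7 tested genes in that span that are no members, 4 are higher, with a median log2 fold change of 0.64, and one of them is the readthrough gene ZNF670-ZNF695, which overlaps ZNF695 on the same strand. ZNF496, at the far end of that block, is lower.

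Letters of known promoter motifs are spread differently over members and over all promoters, and the differences by call were not tested. The background here is all 27305 gene symbols of the promoter table, tested or not, unlike the tested genes used as background above. A gene counts if any of its promoters holds the letters. The ETS motif CCGGAAG, searched on both strands, is in 37.9% of the 195 members with a promoter in the table and in 12.2% of all symbols. It is in 11 of the 28 members that are higher and in 11 of the 34 that are lower. The GC box GGGCGG is in 63.6% of members and 48.3% of all, with 22 of the 28 higher and 23 of the 34 lower members. TATAAA is in 7.69% of members and 14% of all, with 3 of the 28 and none of the 34. Promoters of members hold a median of 25 CpG sites in 300 bases, 23 in those higher and 30 in those lower, against 16 over all.

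The block with the lowest median is on chromosome 10 (chr10:43436841-43648881), with a median log2 fold change of -0.65. Of its 4 tested genes 3 are lower, beside 20.5% of all genes. ZNF485, its KRAB gene, is at 3.17, 3.25 and 2.82 CPM in siNC and at 2.00, 1.69 and 1.86 CPM in siTRIM28. ZNF32 is at 10.2, 7.95 and 10.3 CPM in siNC and at 7.14, 7.01 and 6.67 CPM in siTRIM28, and ZNF487 at 1.66, 2.02 and 1.96 CPM in siNC and at 1.21, 1.18 and 0.929 CPM in siTRIM28. The groups of each gene do not overlap, though all but ZNF32 are at low counts. The count of genes called falls from 3 to 1 by DESeq2, at an adjusted p under 0.01 or without siNC replicate 3. ZNF239, the other tested gene, has a log2 fold change of -0.57 ± 0.324, which is not called.

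A KRAB block at the end of the long arm of chromosome 12 (chr12:132918306-133202440) has 4 of 7 tested genes lower, none higher by edgeR, and a median of -0.28. Over all genes 20.5% are lower and 21.3% higher. ZNF268, with 24 fingers, is at 2.30, 3.90 and 3.29 CPM in siNC and at 1.14, 1.60 and 1.60 CPM in siTRIM28, a log2 fold change of -1.13 ± 0.256 (edgeR adjusted p = 0.00389). ZNF84 is at 19.5, 20.4 and 19.7 CPM in siNC and at 16.6, 15.6 and 16.7 CPM in siTRIM28. ZNF26 is at 7.63, 6.57 and 8.0 CPM in siNC and at 6.07, 5.66 and 5.32 CPM in siTRIM28. The groups do not overlap in these genes or in ZNF140, and they do overlap in ZNF605, ZNF891 and ZNF10. DESeq2 calls 2 of the 7, and 3 of the 7 genes have the siTRIM28-2 seed match.

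Other blocks are mixed, and the counts below stand beside 21.3% higher and 20.5% lower over all genes. On the distal long arm of chromosome 7 (chr7:149069641-150396915) 4 of 11 tested genes are lower, ZNF786, ZNF398, ZNF783 and ZNF777, and ZNF467 is higher. At the tip of chromosome 4 both ZNF141 and ZNF721 are higher among 4 tested, and ZNF721 is at 13.3 ± 0.859 CPM in siNC and 16.5 ± 0.530 CPM in siTRIM28. In the pericentromeric block of chromosome 16 (chr16:30378106-31914527) ZNF267 is higher and ZNF768, ZNF747 and ZNF629 are lower among 11 tested. The histone cluster block of chromosome 6 and the block on the short arm of chromosome 16 with ZNF263 have no gene called among 4 and 5 tested by edgeR. By whole chromosome, chromosome 7 has 9 higher and 4 lower of 29 tested, chromosome 12 has 5 lower and none higher of 11, and chromosome 17 has none called of 8 by edgeR, 2 of them with an unadjusted p under 0.05. The counts of none by edgeR given here for blocks, for the other genes of the chromosome 7 span, for chromosome 12, for members with both domains, for seed-matched members without KRAB and for genes with the promoter run are also 0 at an unadjusted p under 0.05 and by DESeq2 and limma-voom.

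The seed match shown above goes with lower members. An annotated 3′ UTR of at least 30 bases is available for 233 members, and 45 of them hold the match to siTRIM28-2. Of the 39 of these that are tested, 17 are lower and 2 are higher, ZNF519 and ZNF169, with a median log2 fold change of -0.26. Of the 161 tested members without it, 28 are lower and 30 higher, and the median is -0.05. Over all genes, with the match 41.9% of 2346 genes are lower and 15.2% higher, at a median of -0.16, and without it 22.7% of 9899 are lower and 23.3% higher, at a median of 0.01. Of the 7 tested members with a log2 fold change below -1, 5 hold the match. ZNF70 does not, nor does ZNF658, which is not called and is named here after its values were seen.

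By median, the shift with the match lies in members in which no KRAB domain is found. Their median log2 fold change is -0.27 with the match, 20 of 23 being negative, and -0.02 without it. In KRAB members it is -0.06 both with the match, where 8 of 16 are negative, and without it, and the difference between the 2 kinds of member was not tested. By calls, among KRAB members with the match 6 of 16 are lower and 2 higher, and among other members 11 of 23 are lower and none is higher by edgeR. Without the match KRAB members stand at 15 higher and 15 lower of 80, and other members at 15 higher and 13 lower of 81. Of the 32 tested members with the match to siTRIM28-1, 5 are higher and 9 lower. Their median is -0.03, against -0.09 in the 168 without it. In KRAB members with that match 3 of 16 are lower and 3 higher, at a median of 0.08, against -0.08 without it. In other members with it 6 of 16 are lower and 2 higher, at a median of -0.16, against -0.09 without it. In the chromosome 7 block ZNF736 alone holds the siTRIM28-2 match. The part of the seed match in these values was not tested.

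**Figure D4:**
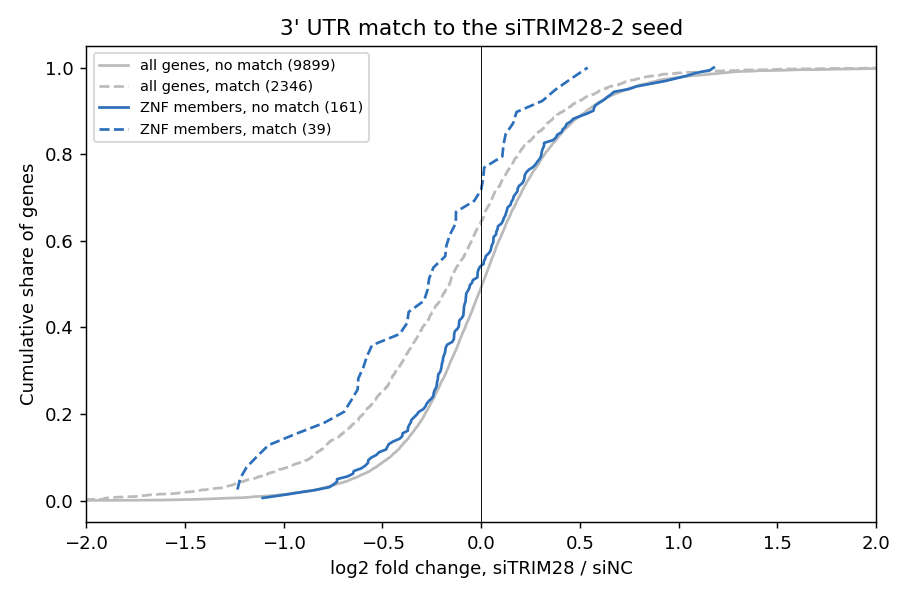
Cumulative share of genes against log2 fold change of siTRIM28 over siNC, for all tested genes (grey) and members (blue) with the siTRIM28-2 seed match (dashed) or without it (solid), TRIM28 itself left out. The dashed lines lie to the left of the solid ones, with medians of -0.26 and -0.05 for members and -0.16 and 0.01 for all genes.

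Overlap with another gene touches 80 members, which share bases with a tested gene of the opposite strand. Of the 76 tested, 27.6% are called, 10 higher and 11 lower, where 41.5% of all genes with such an overlap are called. Of 127 tested members without it 44.1% are called, 22 higher and 34 lower, against 42.1% of all genes without it. The difference was not tested. On the same strand 37 members overlap a tested gene, among them ZNF395 with FBXO16, ZNF619 with ZNF620 and ZNF721 with ABCA11P. KRAB genes of 1 block are also close copies of each other, so their values are uncertain where the counting could lose or split reads between copies.

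Genes through which KRAB proteins work are given for comparison, from a list of 20 that includes TRIM28. Of the 19 others in the table, all tested, 4 are higher and 5 lower, beside 21.3% and 20.5% of all genes. DNMT1, the maintenance DNA methyltransferase, rises from 394 ± 8.75 to 517 ± 20.4 CPM, and UHRF1, which guides it, from 90.5 ± 0.701 to 101 ± 1.54 CPM (SD, n = 3). TRIM24, a relative of TRIM28, rises from 25.9 ± 0.729 to 34.6 ± 3.34 CPM, and the deacetylase HDAC1 has a log2 fold change of 0.12. CHD3 of the NuRD complex falls from 443 ± 5.41 to 365 ± 16.8 CPM, and MORC2, which works with the HUSH silencing complex, from 55.4 ± 0.657 to 43.5 ± 1.79 CPM. HDAC2, TASOR and CBX1 have log2 fold changes of -0.16, -0.18 and -0.14. SETDB1, which writes the silencing mark, is at 25.1 ± 1.26 CPM in siNC and 26.4 ± 1.80 CPM in siTRIM28, with overlap between groups and no call. The counts of 4 and 5 drop to 2 and 3 by DESeq2, with the closest libraries summed, without siNC replicate 1 or without siNC replicate 2.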

How the data were processed

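Values are raw read counts as the authors deposited them, by gene with its Ensembl identifier, name, GRCh38 position and length. Per the labels the reads are trimmed by fastp 0.23.1, mapped by STAR 2.7.6a and counted by featureCounts. Its strand setting and annotation release are not given in the sources used here. A deposited table of RPKM values for selected genes is not used. After TMM scaling, edgeR 4.0.16 (glmQLFit, glmQLFTest, R 4.3.3) tests the 18474 genes that reach 10 counts in 3 or more libraries, with Benjamini-Hochberg adjustment over all of them and a threshold of 0.05. The scripts are tested on simulated data. SE is the log2 fold change over the square root of F. An exact permutation of 3 against 3 libraries cannot give a p under 0.1, so none is used for calls. Members and lists were chosen with earlier results of these data known, those of the functional genes included. Genes named are the 10 largest rises and falls called whose mean is 50 counts or more and whose groups do not overlap, 27 genes of known function, TRIM28 and its called partners, besides those said to be named later and those of the blocks, domains and sequence groups. Protein sequences are not used here, so domains come from GENCODE v29 coding sequences translated with Biopython 1.88 (KRAB at 8 of 14 positions, SCAN at 14 of 25), a change from the plan. Promoters are from RefSeq, which matches 195 members by symbol. The alternatives tried are DESeq2 1.42.0, limma-voom 3.58.1, scaling by RLE, upper quartile or total counts, other filters, a replicate block, single libraries left out and the closest libraries summed.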

Additional observations from a re-analysis of the deposited data

How the results depend on the processing

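Of the 77 members called, 51 (23 higher, 28 lower) are called under each of 15 alternatives of scaling, test, filter, block and left-out libraries. DESeq2 calls 56, all among the 77, the closest pairs summed call 62, of which 61 are among them, and leaving out 1 library gives 64 (without siNC replicate 2) to 83 (without siTRIM28 replicate 1). No call among the named members changes direction under these alternatives. Same-numbered libraries are treated as unpaired, since the sample titles do not say whether they are pairs. The correlations of their deviations are 0.05, -0.01 and 0.04, and the replicate block gives 32 higher and 47 lower. Upper-quartile scaling moves the split to 37 higher and 40 lower and the medians to -0.0458 (all members), -0.0242 (KRAB) and -0.0562 (other members). With single libraries left out these medians run from -0.122 to -0.0435, from -0.113 to -0.00757 and from -0.125 to -0.0732. Without members that hold the siTRIM28-2 seed match, an alternative chosen after seeing the data, 28 members are lower and 30 higher. The partner list has 3 lower under upper-quartile scaling and total counts, and 2 higher and 3 lower by DESeq2, with closest pairs summed and at an adjusted p under 0.01. With a library left out it has 2 to 5 higher and 3 to 7 lower. The chromosome 10 block has 1 lower by DESeq2 and at an adjusted p under 0.01, and 1 to 3 with a library left out, and the chromosome 12 block 2 by DESeq2 (alternatives applied to these blocks after seeing the data). The causes were not tested. The median over all genes moves between 0.00 and 0.07 over these settings. At this depth 34 members are too low to test, and under 50 counts on average 22.4% of members are called.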
